A study of Sus scrofa with 6 samples.

Results

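The genes described here were 45 genes of fat cells, fatty acid and triglyceride synthesis, lipid droplets and lipolysis, chosen by their symbols. The deposited files paired 43 of them with an Ensembl gene ID, and all 43 were among the 13994 genes tested of 20288 protein-coding genes. CIDEA, a droplet fusion protein, and AGPAT2, an acyltransferase of triglyceride synthesis, were matched to no ID and have no values here. LEP passed the expression filter through LT alone and PNPLA3 through 1 LT library alone. Of the 45 genes, 8 (ADIPOQ, LEP, FABP4, PLIN1, CIDEA, CIDEC, CEBPA and THRSP) were set apart as fat cell genes. Another 3 (FITM1, PLIN5 and LPIN1) were set apart as genes of muscle fibres, and the other 34 were listed as shared. These are labels of the list and do not mean that a gene such as LPIN1 is absent from the other cell type.

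The samples were longissimus thoracis (LT, a back muscle) and semitendinosus (ST, a thigh muscle) of 3 Min pigs, an indigenous Chinese breed, of wild-type genotype and 210 days old. Each pig gave 1 LT and 1 ST sample, and samples with the same replicate number were taken as those of 1 pig, so that there were 6 libraries of rRNA-depleted RNA from whole muscle. The study compared LT and ST because they differ in meat quality and in the fat laid down between the fibres. Expression is given in FPKM, in which fragments are scaled to the length of the transcript and to all mapped fragments of the library, summed over the transcripts of a gene.

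Muscle holds fat in adipocytes that lie between the fibres and in small droplets inside the fibres. Both kinds of cell make triglyceride from glycerol phosphate and fatty acids, coat the droplets with perilipins and break the triglyceride down again with a series of lipases. Adipocytes are known by adiponectin, leptin, perilipin 1 and CIDEC, whereas perilipin 5 and FITM1 are typical of oxidative tissues and striated muscle. In whole muscle, fewer cells of a type and less RNA per cell cannot be told apart.

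The muscle origin of the libraries was clear from the 4 of 10 fibre markers found, ACTA1, CKM, DES and NEB, whose summed level ranged from 6986 to 9966 FPKM. Mitochondrial transcripts took 5.36% to 8.16% of the FPKM sum in LT and 12.1% to 15.4% in ST, without overlap. The number of fragments behind each value is not given in the files, so the depth of single values is unknown. The median log2 fold change (ST over LT) of all genes tested was 0.17, and it was -0.01 after quantile normalization and 0.23 after rescaling to nuclear transcripts. Changes are therefore best read relative to this shift.

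Between LT and ST, 1 of the 43 genes, LPL, was called, and it was higher in ST. A call required an adjusted p under 0.05 in limma, with Benjamini-Hochberg adjustment over all genes, and an absolute log2 fold change above 1. Over all genes, 100 were called (0.715%). When the pig was entered as a block, 6 of the 43 were called, namely LPL, PLIN2, PLIN5, GPAM and PNPLA2, which were higher in ST, and GPD1, which was lower. With the block, 3 were called after quantile normalization and 0 without a variance trend, so that none of the calls with the block held in that fit. The block also raised the count over all genes to 706 (5.05%), of which 520 (3.72%) were higher and 186 (1.33%) lower in ST. At an unadjusted p under 0.05 there were 14 of the 43 genes without the block, against 20.7% of all genes. The FPKM of LT and ST did not overlap for 12 of the 43 genes, 9 of them higher in ST, where 19.2% of all genes lay, and 3 lower, where 7.42% lay. LEP, which could enter only through LT, is among both the 14 and the 12. The median log2 fold change of the 43 genes was 0.00.

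The count of called genes depended on single libraries. It was 0 without any 1 of LT1, LT2, LT3, ST1 and ST3, and 6 without ST2 (LPL, PLIN5, MLXIPL, ME1, GPAM and MGLL). Over all genes, the count was between 11 and 17 without each of those 5 libraries and 785 without ST2.

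**Figure D1:**
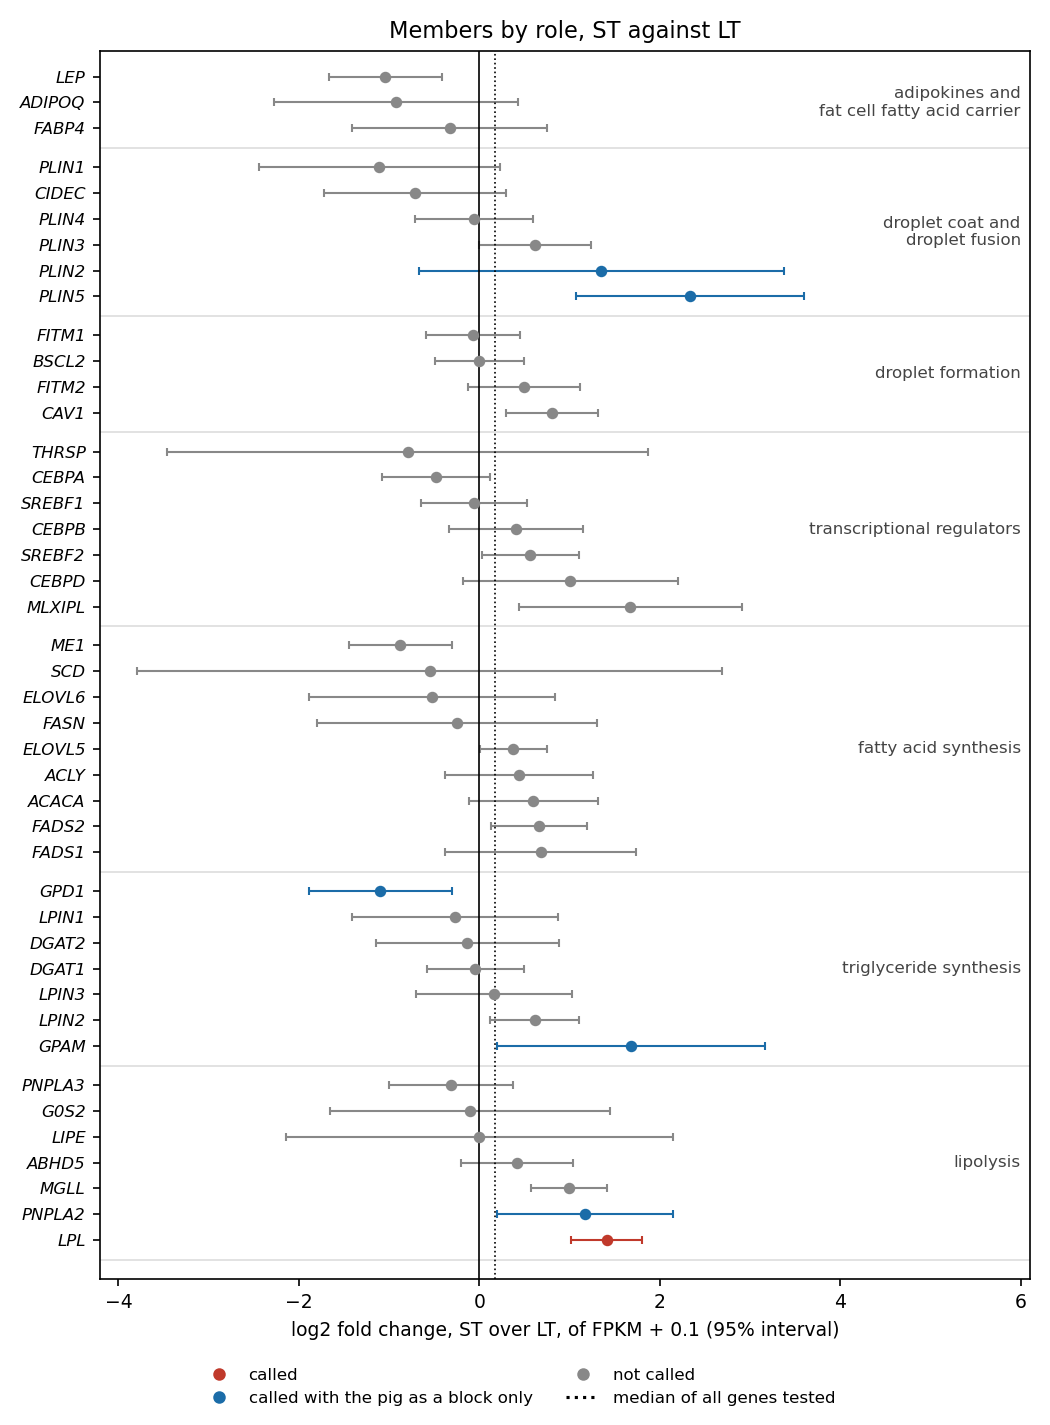
Log2 fold change of FPKM + 0.1 (ST over LT) of the 43 genes with its 95% interval from limma without the block, grouped by role. The red point is LPL, the 1 gene called, blue points are the 5 genes called only with the pig as a block, and the dotted line is the median of all genes tested (0.17).

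For 6 of the 7 fat cell genes that could be measured, LT and ST overlapped. The other was LEP, which was tested only because of its level in LT. ADIPOQ, which encodes the hormone adiponectin made almost only by adipocytes, was at 34.8, 25.1 and 73.6 FPKM in LT of pigs 1, 2 and 3 and at 51.4, 14.6 and 12.6 FPKM in ST. PLIN1, the perilipin that guards the large droplet of adipocytes, was at 6.04, 3.41 and 12.2 FPKM in LT and at 6.23, 2.40 and 1.58 FPKM in ST. In both genes the highest library was LT of pig 3, pig 1 was higher in ST, and pigs 2 and 3 were higher in LT. The log2 fold change was -0.92 ± 0.58 (SE) for ADIPOQ (limma adjusted p = 0.41) and -1.11 ± 0.58 (SE) for PLIN1 (limma adjusted p = 0.321). With 95% intervals of -2.27 to 0.43 and -2.45 to 0.23, neither gene was called, and differences of several fold could not be told from none.

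CIDEC, which fuses small droplets into large ones, was at 5.10, 3.60 and 9.52 FPKM in LT and at 5.42, 2.05 and 3.45 FPKM in ST. CEBPA, a transcription factor of the late steps of fat cell differentiation, was at 3.63, 4.73 and 6.92 FPKM in LT and at 3.97, 3.15 and 3.42 FPKM in ST. As for ADIPOQ, both were higher in LT in pigs 2 and 3, slightly higher in ST in pig 1, and overlapped between the muscles. FABP4, the fatty acid carrier of adipocytes that is also found in capillary endothelium, was at 68.5, 32.8 and 84.5 FPKM in LT and at 85.1, 37.9 and 29.7 FPKM in ST. Here only pig 3 was higher in LT. The log2 fold changes were -0.71 ± 0.43 (SE) for CIDEC, -0.48 ± 0.26 (SE) for CEBPA and -0.33 ± 0.47 (SE) for FABP4, and none was called.

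LEP, the gene of the adipocyte hormone leptin, was very low. It was at 0.185, 0.253 and 0.245 FPKM in LT and at 0.0809, 0.0583 and 0.0389 FPKM in ST, so that all LT libraries lay above all ST libraries. Its log2 fold change was -1.04 ± 0.27 (SE), with a limma adjusted p of 0.0948 and of 0.0754 with the block, and it was not called. Since the ST values lay below the filter of 0.1 FPKM, the size of the difference depends on the pseudocount, and it was -0.21 with a pseudocount of 1 and -1.81 with 0.01.

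The median log2 fold change of the 7 fat cell genes was -0.79, and -0.75 under a filter of 1 FPKM, which LEP does not pass, against 0.17 over all genes tested. None of the 7 was called by limma, with or without the block. Of them 1, LEP, had an unadjusted p under 0.05, against 20.7% of all genes. All 7 fold changes were negative, LEP among them, which could enter only through LT. In just 2 of the 7 was no pig higher in ST, as in 2046 of the 13994 genes tested. The 7 genes come from the same 6 libraries and are not 7 separate results. No fold change turned positive under quantile normalization or after rescaling to nuclear transcripts, while that of THRSP was 0.12 without LT1. Their summed level was 71.3 to 189 FPKM in LT and 51.4 to 163 FPKM in ST. Without LT3 the median was -0.48, and without ST1 it was -1.14.

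**Figure D2:**
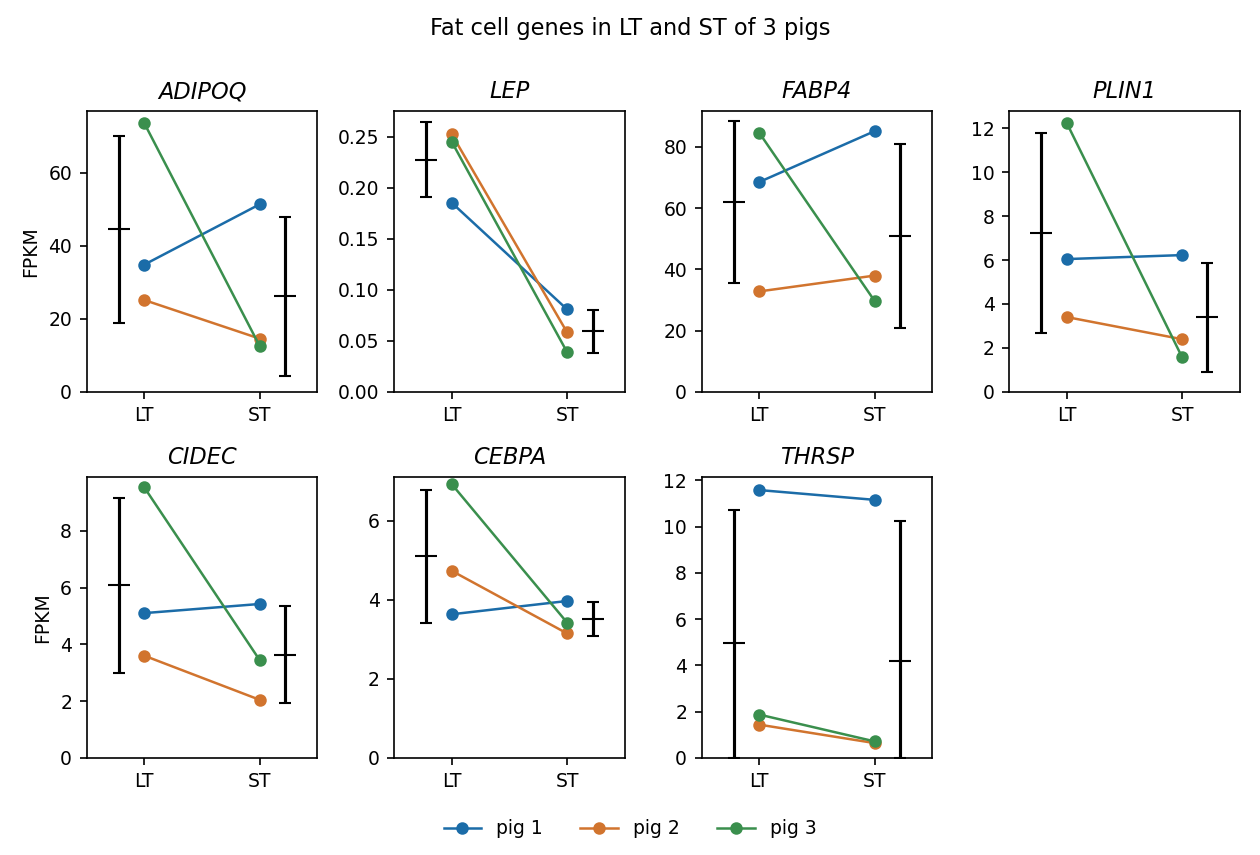
FPKM of the 7 fat cell genes in LT and ST, with 1 line per pig and, beside the points, the mean ± SD of the 3 libraries (bars end at 0). LT of pig 3 was the highest library for ADIPOQ, PLIN1, CIDEC and CEBPA, THRSP was high in both muscles of pig 1, and only LEP shows no overlap.

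Each fat cell gene was divided by ADIPOQ within a library, and the ratio of PLIN1 varied least. Ratios between other pairs were not examined. The FPKM of PLIN1 divided by that of ADIPOQ was between 0.121 and 0.173 in the 6 libraries, a 1.43-fold range, while ADIPOQ itself varied 5.86-fold and PLIN1 7.76-fold. By contrast, the ratio of THRSP to ADIPOQ varied 13.1-fold and that of LEP 6.38-fold, where the genes themselves varied 18.1-fold and 6.49-fold. The ratios of FABP4, CIDEC and CEBPA varied 2.27-fold, 2.60-fold and 3.53-fold. These 3 genes themselves varied 2.87-fold, 4.65-fold and 2.20-fold, so that the ratio of CEBPA varied more than CEBPA did. These are descriptions over 6 libraries, and the 2 genes of a ratio share the library and its depth.

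PPARG, the main transcription factor of fat cell differentiation, was at 2.77, 1.93 and 3.74 FPKM in LT and at 4.96, 2.44 and 2.55 FPKM in ST, and its log2 fold change was 0.20 ± 0.34 (SE, limma adjusted p = 0.783). Of the adipocyte genes outside the 45, 9 could be tested. Among these 9, limma called none and gave 2 an unadjusted p under 0.05, against 20.7% of all genes. Of the brown fat markers outside the 45, 2 were found. ELOVL3 was at 0 in 5 of 6 libraries, while DIO2, a deiodinase that muscle also makes, was at 1.09, 1.13 and 0.241 FPKM in LT and at 2.27, 6.72 and 1.49 FPKM in ST, without overlap (log2 fold change 1.89 ± 0.66, SE, limma adjusted p = 0.159, and 0.0297 with the block, where it was called). DLK1, a marker of preadipocytes, did not exceed 0.232 FPKM.

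LPL was the gene of the 43 with the largest share of its spread between the muscles. It encodes lipoprotein lipase, which is made by muscle and fat cells and releases fatty acids from circulating triglyceride at the capillary wall. It was at 62.1, 74.0 and 62.6 FPKM in LT and at 169, 173 and 186 FPKM in ST, a wide gap with little spread in either muscle. The mean level was 66.2 ± 6.74 FPKM for LT and 176 ± 9.14 FPKM for ST (SD, 3 libraries each). Its log2 fold change was 1.41 ± 0.17 (SE), with a limma adjusted p of 0.0244 and of 0.0189 with the block. The adjusted p was between 0.0827 and 0.109 without any 1 of LT1, LT2, LT3, ST1 and ST3, with fold changes of 1.37 to 1.49, and 0.00964 without ST2.

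MGLL, the lipase of the last step that frees glycerol from monoglyceride, was at 5.92, 5.31 and 6.71 FPKM in LT and at 11.9, 10.4 and 13.8 FPKM in ST. The ST level was 2.01, 1.96 and 2.06 times that of LT in pigs 1, 2 and 3, so the ratio was almost the same in each pig. The log2 fold change was just under 1, at 0.996 ± 0.18 (SE), with a limma adjusted p of 0.0559 and of 0.0258 with the block, and MGLL was not called in either fit. It was called after rescaling to nuclear transcripts, where the fold change was 1.06 and the adjusted p 0.0419, and without ST2, where they were 1.10 and 0.0237.

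PNPLA2, the lipase (ATGL) of the first step of triglyceride breakdown, was at 9.84, 11.6 and 19.3 FPKM in LT and at 23.9, 19.2 and 55.8 FPKM in ST. The highest LT library reached the lowest ST library, but each pig was higher in ST. Its log2 fold change was 1.17 ± 0.42 (SE), with a limma adjusted p of 0.172, and of 0.0291 with the block, where it was called. Without ST3 the fold change was 0.71. ABHD5, the activator of PNPLA2, was higher in ST in 3 of 3 pigs but was not called (log2 fold change 0.42 ± 0.27, SE). G0S2, the inhibitor of PNPLA2, ranged from 9.15 to 66.3 FPKM in LT and from 12.8 to 31.3 FPKM in ST, with a log2 fold change of -0.11 ± 0.67 (SE). LIPE, the hormone-sensitive lipase that follows PNPLA2, had a mean of 8.01 ± 8.81 FPKM in LT and of 8.43 ± 9.73 FPKM in ST (SD, n = 3), with a spread that lay between pigs. PNPLA3 was at or below 0.122 FPKM in all libraries.

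Among the droplet coat proteins, PLIN5 had the largest fold change of the 43 genes. Perilipin 5 links droplets to mitochondria in oxidative tissues. It was at 2.88, 2.93 and 4.38 FPKM in LT and at 10.8, 10.3 and 46.1 FPKM in ST, so that the muscles did not overlap and ST of pig 3 stood far above the rest. Its change was 2.34 ± 0.55 (SE) on the log2 scale, with a limma adjusted p of 0.0774, and of 0.0242 with the block, where it was called. Without ST3 the fold change was 1.63.

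PLIN2, the perilipin found on droplets of most cell types, was at 20.8, 21.3 and 109 FPKM in LT and at 35.9, 73.5 and 305 FPKM in ST. Pig 3 was the highest in both muscles, and ST was 1.72, 3.46 and 2.81 times LT in pigs 1, 2 and 3. The log2 fold change of 1.35 ± 0.87 (SE) had a limma adjusted p of 0.42, and of 0.0287 with the block, where it was called. Without ST3 it was 0.50.

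PLIN3, a perilipin of the cytosol and of new droplets, was at 3.15, 2.72 and 3.13 FPKM in LT and at 4.29, 3.39 and 6.84 FPKM in ST, without overlap and without a call (log2 fold change 0.62 ± 0.27, SE). PLIN4, which coats nascent droplets, was at 64.9 FPKM on average in both muscles (SD 8.58 in LT and 23.0 in ST, n = 3), with a log2 fold change of -0.06 ± 0.28 (SE). PLIN5 and PLIN4 are neighbours on the plus strand of chromosome 2 (Sscrofa11.1, positions 74300619 to 74315125 and 74316771 to 74338941), 1646 bp apart, and their fold changes were 2.34 and -0.06. PLIN3 lies on the same strand 305308 bp before PLIN5.

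Of the proteins of droplet formation, CAV1 was the most abundant. Caveolin 1 shapes the caveolae of adipocytes and of endothelial cells. It was at 141, 126 and 115 FPKM in LT and at 279, 182 and 215 FPKM in ST, without overlap. On the log2 scale the change was 0.80 ± 0.22 (SE), with a limma adjusted p of 0.103 and of 0.0493 with the block, under the fold required for a call. FITM2, which partitions triglyceride into new droplets in fat and other tissues, was at 4.03, 3.94 and 3.89 FPKM in LT and at 4.60, 4.44 and 8.63 FPKM in ST, without overlap. Its muscle counterpart FITM1 was at 67.7 ± 18.9 FPKM in LT and 62.7 ± 1.70 in ST (SD, n = 3), and BSCL2, the gene of seipin, at 5.33 ± 0.292 and 5.44 ± 1.32 (SD, n = 3).

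Endothelial markers differed in how far they separated the muscles. All 6 of the 8 listed markers that were found (PECAM1, CDH5, KDR, CLDN5, TIE1 and TEK) had positive fold changes. Their summed level was 56.5 to 82.5 FPKM in LT and 124 to 184 FPKM in ST. KDR and CLDN5 overlapped between the muscles. CLDN5 had a log2 fold change of only 0.25 (limma adjusted p = 0.641) and was lower in ST in pig 2. FABP4, also found in capillary endothelium, had a log2 fold change of -0.33. PECAM1 and CDH5 were called, with log2 fold changes of 1.39 and 1.22 and limma adjusted p of 0.0399 and 0.0355. With the block KDR was called as well (log2 fold change 1.18, limma adjusted p = 0.184, and 0.0299 with the block). These were 2 of 6 markers, against 0.715% of all genes, and 3 of 6 with the block, against 5.05%. None of the 6 was at 0 in any library. The part of endothelial cells in the values of LPL and CAV1 was not tested. Macrophage markers summed to 21.7 to 27.8 FPKM in LT and 21.1 to 43.0 in ST, and fibroblast markers to 580 to 1186 and 621 to 1124 FPKM, with 0 markers called by limma and 0 at an unadjusted p under 0.05.

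**Figure D3:**
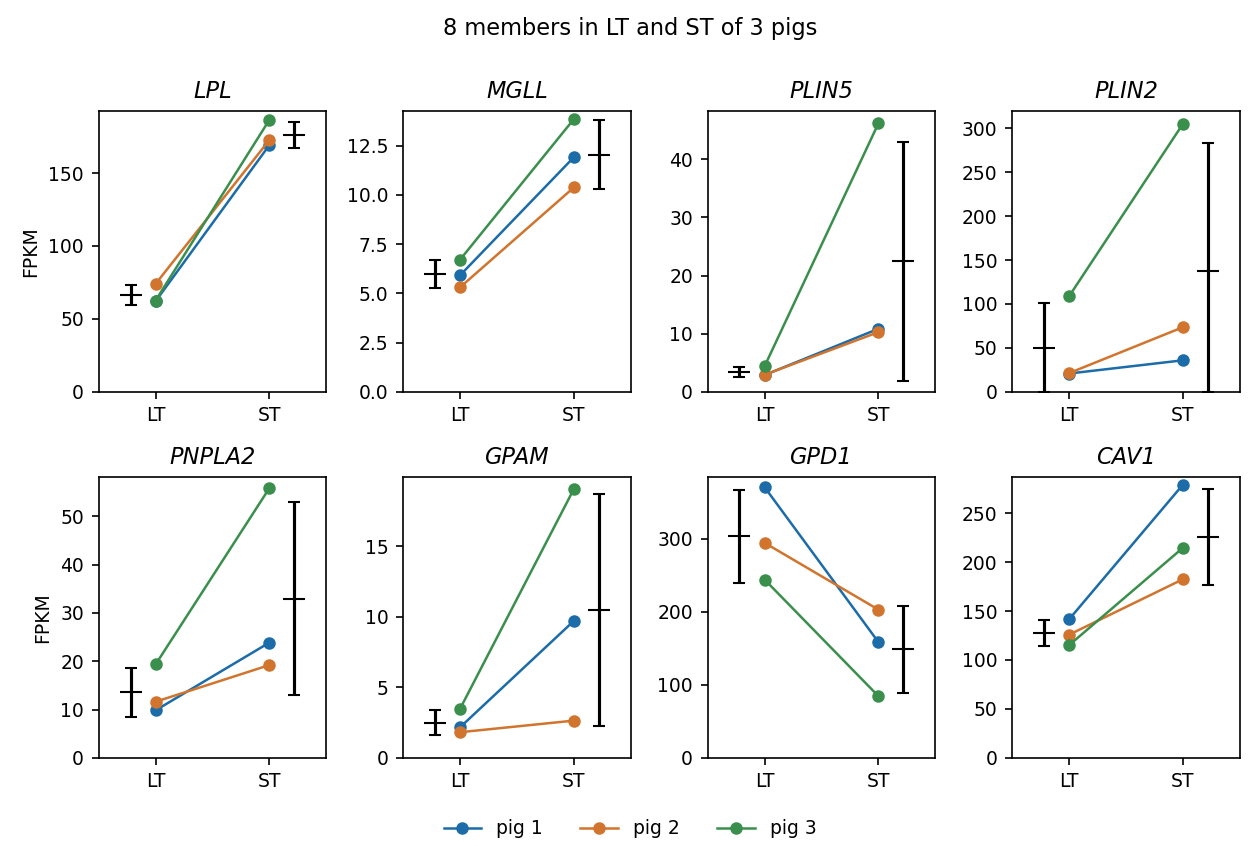
FPKM of LPL, MGLL, PLIN5, PLIN2, PNPLA2, GPAM, GPD1 and CAV1 in LT and ST, with 1 line per pig and the mean ± SD of the 3 libraries beside the points (bars end at 0). The 8 genes were chosen with these values known. Each pig moved in the same direction in them, GPD1 downward and the others upward from LT to ST. All 3 pigs were higher in ST in 17 of the 43 genes and in 5118 of the 13994 genes tested. No pig was higher in ST in 6 of the 43 and in 2046 of the 13994. ST of pig 3 was the highest library for PLIN5, PLIN2, PNPLA2 and GPAM.

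Triglyceride synthesis held opposite changes. GPAM, the mitochondrial acyltransferase that attaches the first fatty acid to glycerol phosphate, was at 2.17, 1.82 and 3.48 FPKM in LT and at 9.71, 2.64 and 19.0 FPKM in ST. ST exceeded LT 4.48-fold, 1.45-fold and 5.48-fold in pigs 1, 2 and 3, and pig 2 had the smallest difference. The log2 fold change of 1.68 ± 0.64 (SE) had a limma adjusted p of 0.192, and of 0.0464 with the block, where GPAM was called. Without ST3 the fold change was 1.05, and without ST2 it was 2.46.

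GPD1, which makes glycerol phosphate from a glycolytic intermediate and serves glycolytic fibres as well as fat synthesis, was the most abundant of the 43 genes in LT. It was at 370.4, 294 and 244 FPKM in LT and at 159, 203 and 84.6 FPKM in ST, and the muscles did not overlap. On the log2 scale the change was -1.10 ± 0.34 (SE), with a limma adjusted p of 0.134, and of 0.0459 with the block, where it was called. The fold change was -0.73 without ST3 and -1.37 without ST2.

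LPIN2, a phosphatidate phosphatase, was at 1.44, 1.49 and 1.40 FPKM in LT and at 2.17, 2.74 and 1.93 FPKM in ST, without overlap, and its log2 fold change of 0.61 ± 0.21 (SE) was not called. LPIN1, the phosphatase that predominates in muscle, was at 16.9 ± 9.28 FPKM in LT and 13.5 ± 5.80 in ST (SD, n = 3), and LPIN3 at 1.23 ± 0.232 and 1.51 ± 0.872 (SD, n = 3). The acyltransferases of the last step did not separate the muscles. DGAT1 was at 2.08 ± 0.410 FPKM in LT and 2.01 ± 0.289 in ST, and DGAT2 at 2.43 ± 0.729 and 2.41 ± 1.55 (SD, n = 3).

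The 9 enzymes of fatty acid synthesis gave no limma call between the muscles. Of them, 3 had an unadjusted p under 0.05, against 20.7% of all genes. ME1, the malic enzyme that supplies NADPH, was at 6.90, 6.80 and 7.34 FPKM in LT and at 3.48, 5.42 and 2.85 FPKM in ST, without overlap, with a log2 fold change of -0.88 ± 0.25 (SE) and a limma adjusted p of 0.109. It was called without ST2, where the fold change was -1.13 and the adjusted p 0.0207. FADS2, the delta-6 desaturase, was at 3.91, 4.93 and 3.59 FPKM in LT and at 7.50, 7.50 and 4.95 FPKM in ST, and ELOVL5, an elongase of polyunsaturated fatty acids, was at 7.88, 7.87 and 8.997 FPKM in LT and at 9.75, 10.96 and 11.5 FPKM in ST. Neither overlapped between the muscles and neither was called (log2 fold changes 0.66 ± 0.23 and 0.38 ± 0.16, SE). FADS1, the delta-5 desaturase, which lies on chromosome 2 at 68617 bp from FADS2, overlapped between the muscles, with a log2 fold change of 0.68 ± 0.46 (SE). For SCD, FASN, ELOVL6, ACLY and ACACA the log2 fold changes were -0.55, -0.25, -0.52, 0.44 and 0.60, each within 2 standard errors of 0.

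None of the 7 transcriptional regulators was called by limma either, and 2 had an unadjusted p under 0.05, against 20.7% of all genes. MLXIPL (ChREBP), which senses glucose, was low, at 0.195 ± 0.108 FPKM in LT and 0.948 ± 0.624 in ST (SD, n = 3), with a log2 fold change of 1.68 ± 0.53 (SE) and a limma adjusted p of 0.139, and of 0.0534 with the block. It was called without ST2, with an adjusted p of 0.0238. SREBF1, the regulator of fatty acid synthesis, was at 4.70 ± 1.44 FPKM in LT and 4.37 ± 0.407 in ST, and SREBF2, the regulator of sterol synthesis, at 3.03 ± 0.747 and 4.47 ± 0.610 (SD, n = 3). CEBPB and CEBPD, which act early in fat cell differentiation and respond to stress, were at 54.5 ± 17.6 and 25.9 ± 19.3 FPKM in LT and at 72.2 ± 25.5 and 45.6 ± 17.0 FPKM in ST (SD, n = 3).

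To compare the spread between pigs and between muscles, the sum of squares of log2(FPKM + 0.1) was divided among muscle, pig and the rest. The share of the pig exceeded that of the muscle in 25 of 43 genes, and this 58.1% was close to the 56.8% of all genes tested. With 3 pigs and 2 muscles, the pig has 2 degrees of freedom and the muscle 1, which raises the share of the pig. In fatty acid synthesis the median share of the pig was 69.6%, against 39.0% over all genes. LIPE, SCD, FASN, LPIN1 and THRSP had over 90% of their spread between pigs, and LPL and MGLL had over 90% between muscles. LEP also had over 90% between muscles, but it could enter only through LT and lay below 0.1 FPKM in ST.

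**Figure D4:**
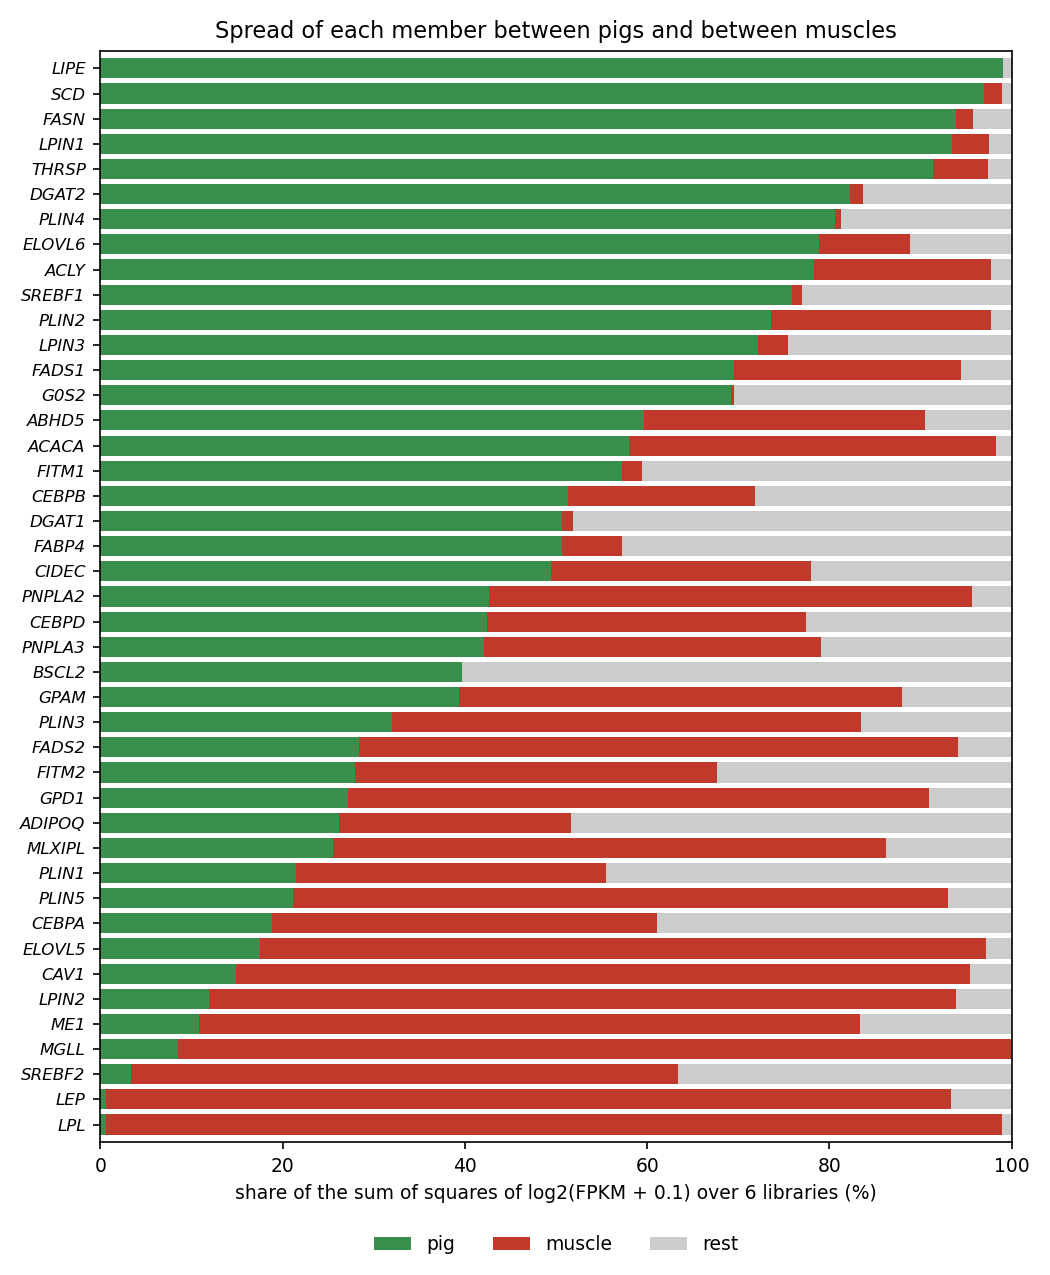
Share of the sum of squares of log2(FPKM + 0.1) over 6 libraries that lay between pigs, between muscles and in the rest, for each of the 43 genes. The pig took 99.1% for LIPE and 97.0% for SCD, and the muscle took 98.3% for LPL and 91.4% for MGLL.

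A test of the pig was added after these values were seen, as the F test of the pig term in the fit with the block. At an adjusted p under 0.05 it called 29 of all genes (0.207%) and 4 of the 43, which were SCD, LIPE, THRSP and PLIN2, and 2 and 0 of the 43 after quantile normalization and without a variance trend. At an unadjusted p under 0.05 there were 19 of the 43, against 15.2% of all genes. Each pig had only 2 libraries, and the pig and anything shared in the handling of its samples cannot be told apart.

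SCD, the desaturase that makes monounsaturated fatty acids, was at 42.9 FPKM in LT and 43.2 FPKM in ST of pig 1, at 5.12 and 2.88 FPKM in pig 2 and at 2.43 and 1.30 FPKM in pig 3. The lower value of pig 1 was 8.39 times the highest value of the other pigs (limma F test, adjusted p = 0.0119). THRSP, a regulator of fatty acid synthesis in fat, was at 11.6 and 11.2 FPKM in LT and ST of pig 1, at 1.44 and 0.641 FPKM in pig 2 and at 1.87 and 0.715 FPKM in pig 3 (limma F test, adjusted p = 0.0417). Thus both muscles of pig 1 were alike and stood apart from those of the other pigs.

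The same pig led 6 further genes. Both libraries of pig 1 lay above the other 4 for 8 of the 43 genes, against 7.75% of all genes, and 5 of the 8 were enzymes of fatty acid synthesis (SCD, FASN, ELOVL6, ACLY and ACACA). The others were THRSP, DGAT1 and DGAT2. FASN, the fatty acid synthase, was at 15.7 and 17.8 FPKM in LT and ST of pig 1, at 9.12 and 8.10 FPKM in pig 2 and at 4.71 and 2.76 FPKM in pig 3 (limma F test, adjusted p = 0.0842). ELOVL6, ACLY and ACACA had mean levels of 4.42, 10.9 and 5.76 FPKM in pig 1, against 1.32 to 1.80, 5.33 to 5.95 and 3.23 to 3.64 FPKM in the other pigs, and their adjusted p in the F test lay between 0.154 and 0.22. ADIPOQ, at 34.8 and 51.4 FPKM in pig 1, was exceeded by LT of pig 3. Of the 7 fibroblast and preadipocyte markers found, 4 (PDGFRA, COL3A1, DCN and LUM) also had both libraries of pig 1 above the other 4, and their part in these values was not tested.

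Both libraries of pig 3 lay above the other 4 for PLIN2, PLIN4, LPIN1, LPIN3 and LIPE. These 5 of the 43 genes were a share near the 9.54% of all genes. Of the 3 red blood cell markers found, HBB and ALAS2 were also highest in both libraries of pig 3, while AHSP was not. Of the 6 macrophage markers, only CD68 was. The part of these cells in these values was not tested. LIPE was at 18.2 and 19.7 FPKM in LT and ST of pig 3, at 2.70 and 3.17 FPKM in pig 1 and at 3.15 and 2.47 FPKM in pig 2 (limma F test, adjusted p = 0.0279). For PLIN2, whose values are given above, the adjusted p was 0.0453.

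**Figure D5:**
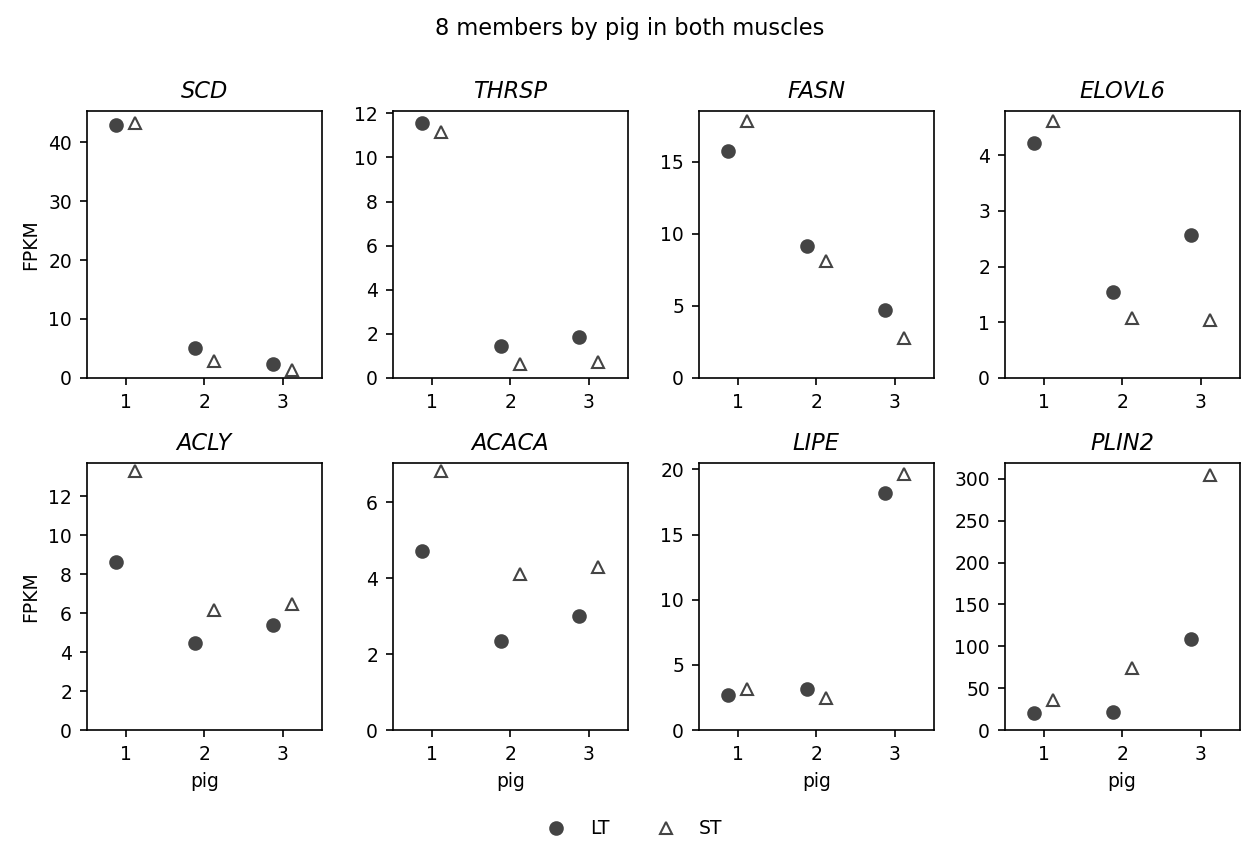
FPKM of SCD, THRSP, FASN, ELOVL6, ACLY, ACACA, LIPE and PLIN2 by pig, with filled circles for LT and open triangles for ST. Both muscles of pig 1 lie highest for the first 6 genes and both muscles of pig 3 for LIPE and PLIN2.

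Of 48 other genes of lipid metabolism, 41 were found and 39 tested. Without the block limma called none, with 11 (28.2%) at an unadjusted p under 0.05, against 20.7% of all genes, and 3 were called with it, against 5.05% of all genes. ACSL1, which activates long-chain fatty acids with coenzyme A, was at 42.7, 74.9 and 128 FPKM in LT and at 229.6, 165 and 474 FPKM in ST, without overlap (log2 fold change 1.81 ± 0.49, SE, limma adjusted p = 0.103, and 0.0255 with the block). GPAT3, an acyltransferase that acts at the same step as GPAM in the endoplasmic reticulum, was at 2.78, 2.05 and 2.58 FPKM in LT and at 13.01, 4.72 and 12.5 FPKM in ST (log2 fold change 1.86 ± 0.38, SE, limma adjusted p = 0.0658, and 0.0228 with the block). As for GPAM, the smallest difference was that of pig 2. IDI1, of sterol synthesis, was at 33.0, 69.9 and 40.3 FPKM in LT and at 17.6, 32.9 and 11.01 FPKM in ST, and was called lower in ST with the block (log2 fold change -1.28 ± 0.42, SE, limma adjusted p = 0.148, and 0.0299 with the block).

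The levels of the 43 genes spanned 4 classes, and since FPKM is scaled to length they can be compared between genes. In LT the mean was above 100 FPKM for 2 genes (GPD1 and CAV1), between 10 and 100 for 12, between 1 and 10 for 26 and at most 1 for 3 (LEP, MLXIPL and PNPLA3). In ST, CAV1, LPL, GPD1 and PLIN2 were above 100 FPKM. PLIN5 moved from rank 30 in LT to rank 12 in ST, GPAM from 35 to 18, and PLIN1 from 19 to 35.

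In the files the 43 genes had 117 transcripts, of which 88 were tested. No transcript was called by limma, with or without the block, while 14 of the 88 (15.9%) had an unadjusted p under 0.05, against 9.69% of all transcripts, and 76 of all 52102 transcripts (0.146%) were called. The leading transcript by mean differed between the muscles for LPL, GPD1 and FADS2. For LPL, ENSSSCT00000071711 (2049 bases) led in LT, with 24.8, 27.9 and 29.4 FPKM, and was at 46.2, 75.5 and 34.3 FPKM in ST. ENSSSCT00000055922 (3858 bases) led in ST, with 104, 26.1 and 125 FPKM, and was at 10.7, 39.1 and 17.3 FPKM in LT. The sum over the transcripts of LPL varied little within a muscle, whereas its division among transcripts changed from library to library.

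For GPD1, ENSSSCT00000048306 led in LT with 185, 135 and 23.6 FPKM and was at 17.9, 74.2 and 24.3 FPKM in ST, and ENSSSCT00000040822 led in ST with 131, 59.8 and 34.8 FPKM and was at 79.4, 55.4 and 187 FPKM in LT. For FADS2, ENSSSCT00000014289 led in LT with 3.23, 3.18 and 0 FPKM and was at 4.87, 0 and 0 FPKM in ST. ENSSSCT00000076766 led in the mean of ST, with 2.63, 2.37 and 2.997 FPKM, but in single ST libraries only in pig 3. In ST of pig 1 the leading transcript was ENSSSCT00000014289, and in ST of pig 2 it was ENSSSCT00000037205, at 5.12 FPKM. In 10 of the 43 genes the leading transcript was not the same in all 6 libraries. An FPKM of 0 for 1 transcript of an expressed gene can be a failed estimate. Transcripts of the 43 genes with such values were tested where at least 1 library exceeded 0.1 FPKM. Their fold changes are not given here.

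A total of 56 lncRNAs lay within 10000 bp of 26 of the 43 genes or overlapped them, and 41 of them were of the intronic class of the files. None was called by limma, and 4 of the 56 had an unadjusted p under 0.05, against 6.56% of all lncRNAs tested. These 4 were LNC_000722 at ME1, LNC_010616 at ELOVL6, LNC_006799 at LPIN1 and LNC_004942 at CEBPB, with log2 fold changes of -1.35, -1.40, 1.52 and 1.31. LNC_000722 could pass the filter only through LT, and it was at 0.0699, 0.0507 and 0 FPKM in ST. LNC_006799 could pass it only through ST, and it was at 0, 0 and 0.0162 FPKM in LT. The size of these 2 differences depends on the pseudocount. Only 10 of the 56 exceeded 1 FPKM in any library.

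At 24 of the 43 genes, assembled transcripts without an Ensembl ID and with more than 2 exons lay on the opposite strand within 1000 bp of the gene body. At SCD, the lncRNA LNC_003906 (7 exons, like the SCD transcripts) was at 1.69, 0.245 and 0.0950 FPKM in LT and at 1.93, 0.160 and 0.101 FPKM in ST, which was 3.91% to 7.77% of SCD in each library. The opposite transcripts at ADIPOQ were at 2.97% to 3.72% of ADIPOQ, those at PLIN1 at 14.5% to 21.4% and those at FASN at 12.6% to 18.2%. Among the 24 genes the highest share was at LEP, with 121% in LT of pig 1. It was 31.3% in LT of pig 3 and 0% in LT of pig 2 and all ST libraries. At GPAM the share was 15.8% to 40.6% in LT and 2.097% to 8.24% in ST, and at MLXIPL 13.7% to 52.7% over all libraries. The part of these shares in the fold changes of the 3 genes was not tested. Whether strand was used in the quantification is not given in the sources used here. Reads of a gene and of its opposite transcripts therefore cannot be told apart. The levels of both are uncertain, those of the lncRNAs included.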

How the data were processed

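Total RNA of LT and ST of 3 pigs was depleted of rRNA and sequenced from directional libraries. The authors filtered reads with SOAPnuke, mapped them to Sscrofa11.1 with HISAT2, used StringTie for assembly and quantification, and deposited 1 FPKM value for each transcript. The values of all transcripts of a protein-coding gene with an Ensembl ID were added up, and symbols came from an Ensembl table. Genes above 0.1 FPKM in 1 or more libraries were compared on log2(FPKM + 0.1) with limma 3.58.1 in R 4.3.3, with a variance trend, with Benjamini-Hochberg adjustment over all 13994 genes, or over 52102 transcripts. Calls needed both an adjusted p below 0.05 and a log2 fold change beyond 1 in either direction. The fit without the block was run on simulated data that held no difference between pigs. The fit with the block and the test between pigs were not tested in this way. Tables and plots were made in Python 3.11.15 with pandas 2.3.3 and matplotlib 3.10.9.

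Counts were not used here, the depth behind single values is unknown, and no counting interval was computed. With 3 libraries per muscle an exact permutation test cannot go below p = 0.1, so single genes were judged by limma. The replicates were different pigs.

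The study took both muscles from each of 3 pigs, and the labels number the samples of each muscle from 1 to 3. That a number marks 1 pig is stated by neither and was taken from the data. Deviations from the muscle means correlated at 0.305 to 0.329 over genes for libraries with the same number and at -0.225 to -0.123 for the others. Deviations of the libraries of a muscle cancel out for each gene, so the negative values follow from the positive ones and are not separate evidence. The fit with the pig as a block is therefore given where it changed the call of a gene or marker.

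Values in every library are given for the fat cell genes, for genes whose muscles did not overlap and for genes called with or without the block. The genes and lists were chosen with earlier results of these data known. Of the other gene and marker lists, those without a matching symbol were left out. Alternatives were other pseudocounts and filters, quantile normalization, rescaling to nuclear transcripts, no variance trend, the highest transcript alone, a wider window for lncRNAs and leaving out each library. The test between pigs was added after the data were seen.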

Additional observations from a re-analysis of the deposited data

How the results depend on the processing

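The count of called genes among the 43 was 1 in the reported fit and 1 with either other pseudocount, with either other filter, after quantile normalization and without a variance trend. It was 2 after rescaling to nuclear transcripts (LPL and MGLL), 0 with the highest transcript alone, and from 0 to 6 when single libraries were left out. With the pig as a block it was 6, and with the block together with another setting it was 4 with a pseudocount of 1, 7 with 0.01, 3 after quantile normalization, 8 after rescaling to nuclear transcripts and 0 without a variance trend. The calls made with the block were thus lost without the variance trend, as were those of the test between pigs, with 4 genes in the reported fit, 2 after quantile normalization and 0 without the trend. The other combinations with the block were chosen after seeing the data.

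Over all genes, 100 were called, 706 with the pairing by pig, 237 after rescaling to nuclear transcripts, 50 after quantile normalization, 26 without a variance trend, 45 with the highest transcript alone, 11 without a filter on FPKM, and 11 to 785 when single libraries were left out. The count of the 43 genes with an unadjusted p under 0.05 was 14, 23 with the block, and 10 to 17 when single libraries were left out. The transcripts of the 43 genes and the lncRNAs at them gave 0 calls under every alternative, a window of 100000 bp included. Apart from the genes and markers named in the report, the block changed no call among the genes of the lists.

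Of the log2 fold changes of single genes under the alternatives, 592 kept their direction and their call, 11 became called, 6 lost their call (all of LPL) and 33 turned their sign, all 33 in genes that were not called. Sign changes with all libraries were 0.012 for PLIN4, 0.0094 for SREBF1, 0.022 for DGAT1 and 0.066 for LIPE after rescaling to nuclear transcripts, -0.20 for BSCL2 and -0.091 for LPIN3 after quantile normalization, 0.17 for PLIN4 with the highest transcript alone, and 0.0066 for LIPE with a pseudocount of 1. When single libraries were left out, the log2 fold changes ranged from -0.30 to 0.24 for PLIN4, from -0.16 to 0.19 for BSCL2, from -0.29 to 0.13 for FITM1, from -0.31 to 0.14 for SREBF1, from -2.08 to 0.12 for THRSP, from -0.88 to 0.45 for FASN, from -2.02 to 0.64 for SCD, from -0.74 to 0.15 for LPIN1, from -0.25 to 0.42 for LPIN3, from -0.20 to 0.077 for DGAT1, from -0.61 to 0.22 for DGAT2, from -0.75 to 0.67 for G0S2 and from -0.92 to 0.86 for LIPE. The cause of these changes was not tested. The interval of ADIPOQ, from -2.27 to 0.43, leaves its direction undecided, and the files give no counts from which the precision of single values could be had.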
